A study of Mus musculus with 12 samples.

Results

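The axon guidance ligands and receptors form 6 gene families on the mouse array: the semaphorins and their plexin receptors, the ephrins and their Eph receptors, the Slits with the Robo receptors, and the netrins with the Unc5 receptors. Members were taken by gene symbol alone. A gene entered when 1 of its probe sets, named by a single symbol, reached a mean signal of 50 in at least 1 zone, and the probe set with the highest mean log2 signal over the 12 arrays stood for the gene. Of 69 genes whose symbols match, 51 passed, out of 11847 genes with a passing probe set in the whole series. They comprised 19 of 20 semaphorins, 7 of 10 plexins, 8 of 8 ephrins, 8 of 13 Eph receptors, 4 of 7 Slits and Robos and 5 of 11 netrins and Unc5 receptors. The name rule also counts Plxna4os1, an antisense transcript that did not pass, among the plexins.

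Axon guidance molecules were found as cues that steer growing nerve fibres, and many act by repelling the growth cone. Secreted semaphorins bind plexins together with neuropilin co-receptors and membrane-bound semaphorins bind plexins directly, whereas ephrins sit on one cell and signal to Eph kinases on its neighbour. Slits act through Robo receptors and netrins through Dcc and Unc5 receptors. The same molecules guide blood vessels, and in mouse bone several of them pass signals between osteoblasts, osteoclasts and the endothelium.

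Tibiae of CD1 mouse embryos at embryonic day 15.5 were cut by hand into 3 zones by their shape. Zone I, at the ends of the bone, holds resting and dividing chondrocytes. Zone II lies next to it and is rich in chondrocytes that are entering or have entered hypertrophy. Zone III takes in the mineralised shaft along with late hypertrophic cells. None of the embryos was treated or mutant, and each zone was hybridized to 4 Affymetrix mouse expression arrays, 12 in all, marked A to D within a zone. The RNA of a zone was pooled over the embryos of a litter, so n = 4 counts litters and the zones are mixed tissue, in which fewer cells of a type and less RNA per cell cannot be told apart.

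The deposited signals are linear intensities with a trimmed mean of 150.0 on every array, and 18407 to 21170 probe sets per array lay at 50 or more. The 10 markers of resting and proliferating chondrocytes, among them Sox9 and Col2a1, summed to 19550 to 24430 in zone I, 30320 to 33050 in zone II and 8115 to 10390 in zone III, so their sum was highest in zone II and not in zone I. The 8 markers of prehypertrophic and hypertrophic cells, among them Ihh and Col10a1, summed to 1249 to 1394 in zone I, 13230 to 15110 in zone II and 10790 to 12660 in zone III. Osteoclast markers summed to 12860 to 15210 in zone III, against at most 1718 in zone II. The 3'/5' ratio of the Gapdh control, a measure of RNA integrity, was 1.98 to 2.28 in zone III and 1.25 to 1.76 in zones I and II. The actin control ran the other way, with 1.70 to 2.02 in zone III and 2.09 to 3.23 in zones I and II, and the part of RNA integrity in the results was not tested.

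For guidance genes zone II was more often the lowest of the 3 zones, and less often the highest, than for all genes. Zone II had the lowest mean signal of the 3 zones for 30 of the 51 genes (58.8%, against 41.4% of all genes), and the highest for only 4 (7.84%, against 29.9%). These 4 were Sema3d, Sema5b, Sema6c and Plxnb1. Zone I was highest for 22 genes (43.1%, against 31.6% of all genes) and zone III for 25 (49.0%, against 38.5%).

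**Figure D1:**
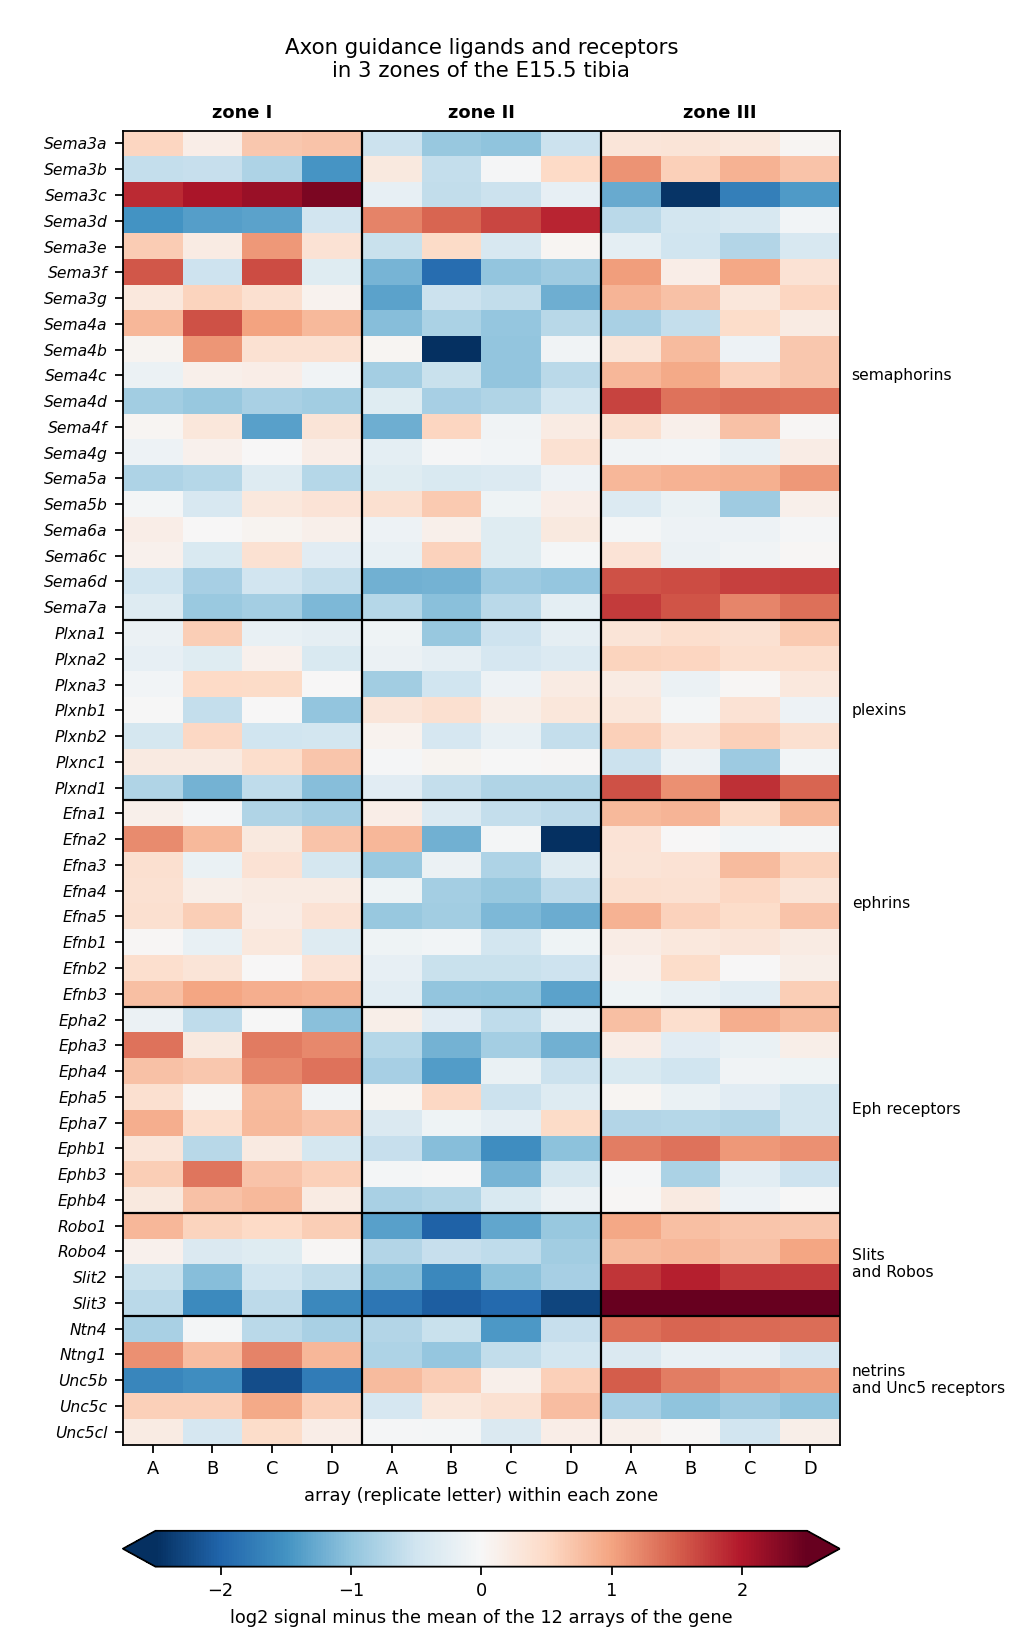
Log2 signal of each of the 51 genes (lines, by family) on each of the 12 arrays (columns, by zone), as the difference from the mean of the gene over the 12 arrays. Blue cells below the mean prevail in zone II, where 30 of the 51 genes had their lowest zone mean, and Sema3d and Unc5b stand against that pattern.

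Differences between zones were tested with limma on log2 signals, with p-values adjusted over all 22255 probe sets that passed, and each difference is the value of the more mature zone less that of the other, ± SE, whereas means of a zone are given ± SD (n = 4 arrays). A gene was counted as higher or lower at an adjusted p under 0.05. The 3 comparisons share the arrays of the zones, so their counts are not independent of each other. In zone II against zone I, 5 of the 51 genes were higher (9.8%, against 16% of all genes tested) and 23 were lower (45.1%, against 25.4%), with a median log2 difference of -0.47 over the 51 and -0.09 over all genes. In zone III against zone II, 33 were higher (64.7%, against 31.0%) and 4 were lower (7.84%, against 22.7%), with medians of 0.80 and 0.09.

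Zone III against zone I left a more even picture. There 18 genes were higher (35.3%, against 21.7% of all genes) and 11 were lower (21.6%, against 21.7%), so the share of lower genes was that of the array as a whole. Set against the mean of both outer zones, zone II was higher for 2 genes, Sema3d and Unc5b (3.92%, against 20.0%), and lower for 30 (58.8%, against 30.9%), with a median of -0.69 over the 51 and -0.10 over all genes. No test of the 51 as a list was made, and these shares describe genes that had passed the signal filter.

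The split between higher and lower genes in zone III against zone II moved with the scaling of the arrays. Quantile normalization gave 27 higher and 8 lower and centring on the median of each array 25 and 7, with the median of all genes at -0.02 and -0.16. Centring on 41 ribosomal protein genes, which put the median of all genes at -0.39 in zone II against zone I and at 0.51 in zone III against zone II, gave 34 lower and 2 higher in zone II against zone I, and 35 higher and 3 lower in zone III against zone II. With quantile normalization and with median centring alike, Efnb1, Ephb4, Ntng1, Sema3b, Sema4a and Sema4b no longer passed as higher in zone III than in zone II, nor Sema3e, Sema4b and Sema6d in zone II against zone I. Unc5b (adjusted p = 0.0509) and Plxnb2 (adjusted p = 0.0709) missed the threshold in zone III against zone II with median centring. With ribosomal centring Epha7 (adjusted p = 0.407) no longer passed in zone III against zone II, nor Plxnb1, Sema3b and Sema5a in zone II against zone I.

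Ligands and receptors were counted apart. Of 31 ligands, 20 were lower and 1 higher in zone II than in the mean of the outer zones, with a median of -0.96. Of 20 receptors 10 were lower and 1 higher, with a median of -0.46 (all genes, 30.9% lower and 20.0% higher). A high zone III alone can give such a call, as for Sema4d, Sema7a, Sema5a and Plxnd1, which were not lower in zone II than in zone I. In zone II against zone I, 15 ligands were lower and 3 higher, and 8 receptors were lower and 2 higher (all genes, 25.4% and 16%). Whether the 2 groups differ was not tested. The 9 genes that passed in no comparison were Sema4f, Sema4g, Sema5b, Sema6a, Sema6c, Plxna3, Efna2, Epha5 and Unc5cl. This holds for the chosen probe sets: a second Epha5 probe set was lower in zone II than in zone I (log2 difference -1.27, adjusted p = 0.00134) and in zone III than in zone I (-1.68, adjusted p = 0.000135), and a second Plxna3 probe set was lower in zone II than in zone I (-0.60, adjusted p = 0.0208). The list of 9 also holds for the main scaling only. Sema5b and Sema6a passed as lower in zone III than in zone II with quantile normalization (limma, adjusted p = 0.00544 and 0.0322) and with median centring (0.0111 and 0.0473). With ribosomal centring Efna2 passed as lower in zone II than in zone I (adjusted p = 0.016).

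**Figure D2:**
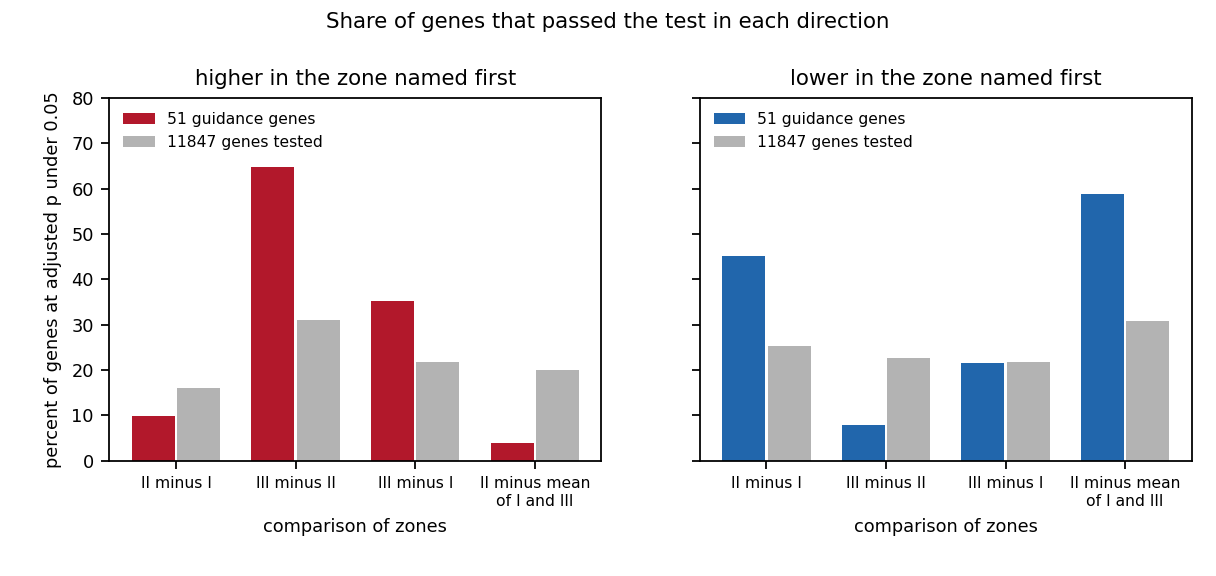
Percent of genes at an adjusted p under 0.05 (limma), higher on the left and lower on the right, for the 51 guidance genes (coloured bars) and all 11847 genes tested (grey bars) in each comparison of zones. The widest gap is in zone III against zone II, where 64.7% of the guidance genes and 31.0% of all genes were higher.

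Among the secreted class 3 semaphorins, Sema3c and Sema3d differed in opposite directions between zones II and I, and both were lower in zone III than in zone II. Sema3c, which signals through neuropilins with plexins, had signals of 1239, 1401, 1516 and 1732 in zone I, 294, 221, 236 and 294 in zone II and 141, 62.1, 104 and 128 in zone III. The zones did not overlap: zone II was lower than zone I 5.63-fold (log2 difference -2.49 ± 0.23, adjusted p = 5.27e-06), zone III lower than zone II 2.49-fold (log2 difference -1.32 ± 0.23, adjusted p = 0.000408), and zone III lower than zone I 14.1-fold (log2 difference -3.81 ± 0.23, adjusted p = 8.13e-08). A second Sema3c probe set gave -2.57 for zone III against zone I. Sema3d, a class 3 semaphorin of the same group of genes, had 156, 169.7, 175 and 314 in zone I, 1037, 1198, 1396 and 1650 in zone II and 276, 320.4, 332 and 419 in zone III. Every zone II array lay above every array of the outer zones, and zone II was higher than zone I 6.66-fold (log2 difference 2.74 ± 0.23, adjusted p = 2.34e-06) while zone III was lower than zone II 3.9-fold (log2 difference -1.96 ± 0.23, adjusted p = 1.49e-05). Zones III and I overlapped for Sema3d, and their difference of 0.77 ± 0.23 (adjusted p = 0.0159) missed the threshold without zone III array D (adjusted p = 0.0516).

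Sema3d, Sema3a, Sema3e and Sema3c lie in that order on mouse chromosome 5, with 0, 3 and 15 protein-coding genes between neighbours. The promoters of Sema3d and Sema3c, from RefSeq on GRCm38.p6, are shown because these genes moved against each other between zones I and II. Each runs from 250 bases before to 50 bases after the gene's start, on the plus strand, at chr5:12382916-12383215 for Sema3d and chr5:17574566-17574865 for Sema3c, with the GC box GGGCGG on either strand in capitals.
Sema3d: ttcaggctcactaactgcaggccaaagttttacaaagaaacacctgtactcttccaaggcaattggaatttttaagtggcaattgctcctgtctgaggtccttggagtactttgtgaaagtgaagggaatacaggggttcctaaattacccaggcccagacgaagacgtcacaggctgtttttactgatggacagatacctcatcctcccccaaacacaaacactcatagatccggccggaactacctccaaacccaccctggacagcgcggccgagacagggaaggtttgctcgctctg
Sema3c: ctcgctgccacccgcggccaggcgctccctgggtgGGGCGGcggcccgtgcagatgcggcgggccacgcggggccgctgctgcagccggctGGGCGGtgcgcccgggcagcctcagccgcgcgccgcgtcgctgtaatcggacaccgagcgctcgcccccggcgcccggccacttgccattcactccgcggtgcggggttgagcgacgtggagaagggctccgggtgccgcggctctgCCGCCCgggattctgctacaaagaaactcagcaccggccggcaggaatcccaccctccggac
The Sema3d window was 49.7% G and C with 8 CpG pairs and 0 GC boxes, and the Sema3c window 75.7% with 42 CpG pairs and 3 GC boxes. RefSeq gave 59 promoters for 46 of the 51 genes, and GGGCGG was in 43 of them (72.9%), in 61.6% of the 12299 promoters of all genes that passed and in 35.7% of all 32851. Of the other letters searched on both strands, the Runx motif TGTGGT was in 13.6% of the 59 and in 12.2% of the 12299, the AP-1 motif TGANTCA in 3.39% and 5.07%, the Sox motif AACAAT in 3.39% and 5.95%, and the TATA box TATAAA in 3.39% and 7.77%. Such matches describe the letters of the windows and do not mark a bound site.

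Sema3a and Sema3e, the genes between them, were again different. Sema3a, which repels axons through neuropilin-1 and class A plexins and in mouse also favours bone formation, had 220.1, 169.8, 239 and 248 in zone I, 104, 77.7, 75.1 and 104 in zone II and 186, 189, 181 and 156 in zone III. No zone II array reached the level of either outer zone. Sema3a was lower in zone II than in zone I 2.44-fold (log2 difference -1.29 ± 0.16, adjusted p = 4.78e-05) and higher in zone III than in zone II 2-fold (log2 difference 1.00 ± 0.16, adjusted p = 0.00018), and zones III and I overlapped. Its plexin A4 partner did not pass the signal filter. Sema3e, which binds plexin D1 without a neuropilin and guides vessels, had 132, 98.8, 182 and 110.1 in zone I, 57.9, 119, 64.3 and 88.2 in zone II and 71.7, 60.7, 51.0 and 64.3 in zone III. Zone III lay below zone I on every array, 2.07-fold (log2 difference -1.05 ± 0.24, adjusted p = 0.00389). Zones II and I overlapped for Sema3e, and the difference of -0.68 ± 0.24 (adjusted p = 0.0405) missed the threshold without any 1 of 7 arrays, zone I A and C, zone II A, C and D, and zone III B and D.

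Several membrane-bound semaphorins were higher in zone III. Sema6d, a transmembrane ligand of class A plexins, had 223, 176, 224 and 208 in zone I, 136, 138, 166 and 161 in zone II and 952, 968, 1020 and 1046 in zone III. Every zone III array lay far above every array of the other zones. Sema6d was higher in zone III than in zone II 6.65-fold (log2 difference 2.73 ± 0.11, adjusted p = 1.18e-08) and than in zone I 4.81-fold (log2 difference 2.27 ± 0.11, adjusted p = 2.22e-08), and lower in zone II than in zone I 1.38-fold (log2 difference -0.47 ± 0.11, adjusted p = 0.00672). Another Sema6d probe set, which may read other transcripts of the gene, gave 0.10 for zone III against zone II (adjusted p = 0.769) and -0.17 for zone III against zone I (adjusted p = 0.621).

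Sema4d, which osteoclasts make and which in mouse holds back osteoblasts through plexin B1, had 81.1, 76.9, 85.1 and 81.3 in zone I, 119.5, 83.9, 88.4 and 108 in zone II and 476, 379, 392 and 387 in zone III. Zones I and II overlapped, and zone III stood apart from both. Sema4d was higher in zone III than in zone II 4.11-fold (log2 difference 2.04 ± 0.13, adjusted p = 1.42e-07) and than in zone I 5.02-fold (log2 difference 2.33 ± 0.13, adjusted p = 5.38e-08). Sema7a, a semaphorin anchored by a lipid, averaged 91.0 ± 23.4 in zone I, then 99.6 ± 23.0 in zone II and 439.8 ± 71.5 in zone III and was higher in zone III than in zone II 4.46-fold (log2 difference 2.16 ± 0.20, adjusted p = 2.93e-06). Sema5a, a transmembrane semaphorin with thrombospondin repeats, averaged 89.0, 112 and 258 in zones I, II and III and was higher in zone III than in zone II 2.29-fold (log2 difference 1.20 ± 0.12, adjusted p = 6.20e-06).

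Of the other semaphorins, Sema3b, Sema3g and Sema4c were also higher in zone III than in zone II, with log2 differences of 0.80 ± 0.25, 1.52 ± 0.20 and 1.53 ± 0.13, and the Sema3b call was lost without zone II array B or zone III array A (adjusted p = 0.0544 and 0.056). Sema3g and Sema4c were lower in zone II than in zone I, with -1.25 ± 0.20 and -0.78 ± 0.13, whereas Sema3b was higher, with 0.89 ± 0.25. Sema3g passed the signal filter through zone III alone and averaged 19.3 in zone II. Sema4a passed through zone I alone, with means of 72.8, 18.6 and 32.0 in zones I, II and III. It was lower in zone II than in zone I 3.83-fold (log2 difference -1.94 ± 0.27, adjusted p = 0.000147), and with 16 added to every signal the log2 difference was -1.34. Sema4a and Sema4b in zone III against zone II, Sema4b in zone II against zone I and Sema5a in zone II against zone I had adjusted p-values of 0.0375 to 0.0497. The Sema4a call was lost without any 1 of 9 arrays, all but zone I B and zone III A and B, and the Sema5a call without any 1 of 10, all but zone I C and zone III D. The Sema4b calls were lost without zone II B or C or zone III A, B or D in zone III against zone II, and without zone I B, C or D, zone II B or C or zone III A in zone II against zone I, with adjusted p-values of 0.0505 to 0.0999. The mean of Sema3f, singled out after its values were seen, hides a split in zone I. Sema3f, a secreted ligand of neuropilin-2, had 1580, 378, 1673 and 439 in zone I, 242, 144, 274 and 293 in zone II and 1120, 606, 1058 and 698 in zone III. Arrays A and C were high in both outer zones, yet every array of zones I and III lay above every zone II array, and Sema3f was lower in zone II than in zone I 3.54-fold (log2 difference -1.82 ± 0.47, adjusted p = 0.0091) and higher in zone III than in zone II 3.66-fold (log2 difference 1.87 ± 0.47, adjusted p = 0.00535). Sema4g, Sema6a and Sema6c averaged 124, 123 and 118, 132, 124 and 116 and 525, 549.9 and 547 in zones I, II and III and passed in none of the comparisons.

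Of the plexins, the semaphorin receptors, none passed as lower in zone II than in zone I. Of 7 above the filter, 1 was higher, 0 were lower and 6 did not pass. Of all genes, 16% were higher and 25.4% lower there. In zone III against zone II 4 were higher and 0 lower, against 31.0% and 22.7% of all genes. The absence of lower plexins in zone II against zone I depended on the scaling. With ribosomal protein centring Plxna1, Plxna2, Plxna3 and Plxnc1 passed as lower there (limma, adjusted p = 0.011 to 0.0208). Plxnb1 did not pass as higher with it (adjusted p = 0.109). Plxnd1, the receptor of Sema3e on vessels, had 157, 117, 171 and 126 in zone I, 218, 174, 156 and 158 in zone II and 792, 583, 932 and 720.1 in zone III. Zones I and II overlapped, while the lowest zone III array was above all of them. Plxnd1 was higher in zone III than in zone II 4.27-fold (log2 difference 2.09 ± 0.18, adjusted p = 1.17e-06) and than in zone I 5.29-fold (log2 difference 2.40 ± 0.18, adjusted p = 4.83e-07), and so ran opposite to Sema3e, which was lowest in zone III.

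Plxna1, a partner of neuropilin-1 and a receptor of Sema6d, had 137, 233, 134 and 129 in zone I, 140.3, 78.7, 107 and 129.7 in zone II and 189, 203, 197 and 239.6 in zone III. Array B was alone in zone I, and zone III was above zone II on every array, 1.86-fold (log2 difference 0.89 ± 0.22, adjusted p = 0.00419). Plxna2, another class A plexin, had 60.3, 56.1, 75.1 and 53.4 in zone I, 62.8, 59.3, 52.0 and 54.9 in zone II and 102, 102, 93.4 and 92.5 in zone III. Only zone III stood apart, higher than zone II 1.71-fold (log2 difference 0.77 ± 0.12, adjusted p = 0.00022) and than zone I 1.6-fold (log2 difference 0.68 ± 0.12, adjusted p = 0.000768). Plxnb1, the receptor of Sema4d, had 183, 122, 186 and 93.7 in zone I, 229.8, 243, 204 and 227 in zone II and 227, 179, 236 and 169 in zone III. Every zone II array was above every zone I array, and Plxnb1 was higher in zone II 1.61-fold (log2 difference 0.68 ± 0.21, adjusted p = 0.0216), a call lost without zone I array B or D or zone II array B (adjusted p = 0.0516 to 0.0564).

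Plxnc1, the receptor of Sema7a, had 55.6, 56.0, 64.9 and 77.0 in zone I, 46.5, 50.4, 47.2 and 49.0 in zone II and 32.9, 43.3, 25.6 and 45.8 in zone III. It was the 1 plexin lower in zone III than in zone I, 1.75-fold (log2 difference -0.81 ± 0.18, adjusted p = 0.00312), and its signals were near the filter of 50 throughout. Plxnb2 was higher in zone III than in zone II 1.7-fold (log2 difference 0.76 ± 0.22, adjusted p = 0.0123), and in zone III than in zone I by 0.70 ± 0.22 (adjusted p = 0.023), a call lost without zone I array A, C or D or zone III array A or C (adjusted p = 0.0566 to 0.0659). Plxna3 averaged 166, 116 and 149 in zones I, II and III and passed in none of the comparisons.

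Ephrins, the ligands on the cell surface, were mostly higher in zone III than in zone II. There 7 of 8 were higher and 0 lower, against 31.0% and 22.7% of all genes. In zone II against zone I 0 were higher and 4 lower, against 16% and 25.4% of all genes. Efna5, a lipid-anchored ligand of EphA receptors, had 178, 207, 154 and 174 in zone I, 70.3, 74.1, 61.7 and 57.4 in zone II and 246, 200.3, 186 and 222 in zone III. Every zone II array lay far below every array of the outer zones. Efna5 was lower in zone II than in zone I 2.7-fold (log2 difference -1.43 ± 0.13, adjusted p = 6.28e-06) and higher in zone III than in zone II 3.24-fold (log2 difference 1.70 ± 0.13, adjusted p = 6.83e-07), and zones III and I overlapped.

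Efnb3, a transmembrane ephrin that forms a barrier at the midline of the mouse spinal cord, had 108, 127, 120.2 and 117 in zone I, 53.5, 32.4, 32.0 and 25.3 in zone II and 59.3, 56.2, 53.3 and 97.3 in zone III. Zone I was above both other zones, and zone II overlapped zone III. Efnb3 was lower in zone II than in zone I 3.42-fold (log2 difference -1.77 ± 0.23, adjusted p = 8.61e-05), higher in zone III than in zone II 1.87-fold (log2 difference 0.91 ± 0.23, adjusted p = 0.00576) and lower in zone III than in zone I 1.83-fold (log2 difference -0.87 ± 0.23, adjusted p = 0.0094). Efna1, an ephrin known from endothelial cells, had 93.3, 83.7, 51.0 and 47.7 in zone I, 96.6, 67.1, 56.7 and 54.0 in zone II and 150.0, 154, 118 and 151 in zone III. It was higher in zone III than in zone II 2.13-fold (log2 difference 1.09 ± 0.24, adjusted p = 0.00237), with no overlap of zone III with either other zone. Efna4, another EphA ligand, had 98.2, 83.3, 86.5 and 86.1 in zone I, 69.5, 41.8, 38.8 and 47.9 in zone II and 98.5, 97.7, 108 and 93.9 in zone III. Zone II was below the outer zones on every array, lower than zone I 1.83-fold (log2 difference -0.87 ± 0.16, adjusted p = 0.00116), and zone III was higher than zone II 2.06-fold (log2 difference 1.04 ± 0.16, adjusted p = 0.000175).

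Efnb2, which marks arterial endothelium and in mouse is carried by osteoclasts, had 362, 336, 272 and 339 in zone I, 234, 183, 182 and 188 in zone II and 289, 370.1, 271 and 299.5 in zone III. Zone II lay below both outer zones, which overlapped. Efnb2 was lower in zone II than in zone I 1.67-fold (log2 difference -0.74 ± 0.14, adjusted p = 0.00126) and higher in zone III than in zone II 1.56-fold (log2 difference 0.64 ± 0.14, adjusted p = 0.00194). Efnb1, a transmembrane ephrin needed for skull and limb patterning, had 254, 218, 296 and 197 in zone I, 229.9, 235, 181 and 229.9 in zone II and 281, 296, 304 and 286 in zone III. Its zones I and II overlapped, and zone III was higher than zone II by 0.42 ± 0.14 (adjusted p = 0.0233), a call lost without zone II array C or zone III array B or C (adjusted p = 0.0511 to 0.0712). Both other Efnb1 probe sets were lower in zone II than in zone I, with log2 differences of -0.83 (adjusted p = 0.00134) and -0.49 (adjusted p = 0.0342), where the chosen one gave -0.13 ± 0.14 (adjusted p = 0.492). Efna3 averaged 85.8, 57.0 and 116 in zones I, II and III and was higher in zone III than in zone II 2.06-fold (log2 difference 1.04 ± 0.22, adjusted p = 0.00185), and Efna2, whose zone II arrays ran from 10.1 to 123, passed in none of the comparisons.

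Eph receptors went both ways in zone III against zone I. Of 8 above the filter, 6 were lower and 0 higher in zone II than in zone I, against 25.4% and 16% of all genes. Zone III against zone I gave 2 higher and 4 lower, against 21.7% and 21.7% of all genes, so the share of higher ones was near that of all genes. Epha3, a receptor of A-type ephrins, had 263, 122, 255 and 238 in zone I, 63.0, 45.3, 57.4 and 44.7 in zone II and 117, 84.4, 92.1 and 114 in zone III. Zone I was above zones II and III on every array although its array B was low. Epha3 was lower in zone II than in zone I 4.04-fold (log2 difference -2.01 ± 0.23, adjusted p = 3.68e-05), higher in zone III than in zone II 1.94-fold (log2 difference 0.95 ± 0.23, adjusted p = 0.0047) and lower in zone III than in zone I 2.08-fold (log2 difference -1.06 ± 0.23, adjusted p = 0.00322).

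Epha4, which binds A-type and B-type ephrins, had 168, 162, 233 and 259.5 in zone I, 57.0, 38.4, 90.4 and 69.3 in zone II and 77.4, 71.6, 94.7 and 94.1 in zone III. Zone I again stood above the others, and zones II and III overlapped. Epha4 was lower in zone II than in zone I 3.31-fold (log2 difference -1.73 ± 0.24, adjusted p = 0.000158) and lower in zone III than in zone I 2.4-fold (log2 difference -1.27 ± 0.24, adjusted p = 0.00123). Of 3 other Epha4 probe sets, 1 gave -0.23 for zone II against zone I (adjusted p = 0.48) and 0.19 for zone III against zone I (adjusted p = 0.553), while the other 2 gave -1.61 and -1.32 for zone II against zone I.

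Epha7, a receptor of A-type ephrins, had 136, 96.2, 127 and 119 in zone I, 56.3, 67.4, 61.8 and 101 in zone II and 43.2, 43.9, 43.1 and 52.9 in zone III. Its signals stepped down along the zones, with some overlap of zones I and II and none of zones II and III: zone II was lower than zone I 1.7-fold (log2 difference -0.76 ± 0.18, adjusted p = 0.00527), zone III lower than zone II 1.53-fold (log2 difference -0.61 ± 0.18, adjusted p = 0.0128) and zone III lower than zone I 2.6-fold (log2 difference -1.38 ± 0.18, adjusted p = 6.28e-05). Ephb1, a receptor of B-type ephrins, had 87.9, 44.5, 83.3 and 53.2 in zone I, 47.8, 34.2, 24.3 and 35.1 in zone II and 173, 184, 152 and 158 in zone III. Every zone III array was above every array of the other zones, and zones I and II overlapped. Ephb1 was higher in zone III than in zone II 4.84-fold (log2 difference 2.28 ± 0.24, adjusted p = 7.11e-06) and than in zone I 2.58-fold (log2 difference 1.37 ± 0.24, adjusted p = 0.000612), and lower in zone II than in zone I 1.88-fold (log2 difference -0.91 ± 0.24, adjusted p = 0.01).

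Ephb4, the receptor of Efnb2 on veins and on mouse osteoblasts, had 113, 158, 168 and 110.2 in zone I, 54.6, 56.3, 73.1 and 85.9 in zone II and 97.5, 111, 87.4 and 95.3 in zone III. All zone II arrays were below all arrays of the outer zones, which overlapped. Ephb4 was lower in zone II than in zone I 2.03-fold (log2 difference -1.02 ± 0.18, adjusted p = 0.00092), as was its ligand Efnb2, and higher in zone III than in zone II by 0.55 ± 0.18 (adjusted p = 0.0235), a call lost without zone II array A or B or zone III array B (adjusted p = 0.0668 to 0.0671). Ephb3 averaged 251, 109.6 and 108 in zones I, II and III, lower in zone II than in zone I 2.34-fold (log2 difference -1.23 ± 0.26, adjusted p = 0.00302) and in zone III than in zone I 2.31-fold (log2 difference -1.21 ± 0.26, adjusted p = 0.00288). Epha2 averaged 73.6, 83.5 and 161 and was higher in zone III than in zone II 1.95-fold (log2 difference 0.97 ± 0.23, adjusted p = 0.00371).

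**Figure D3:**
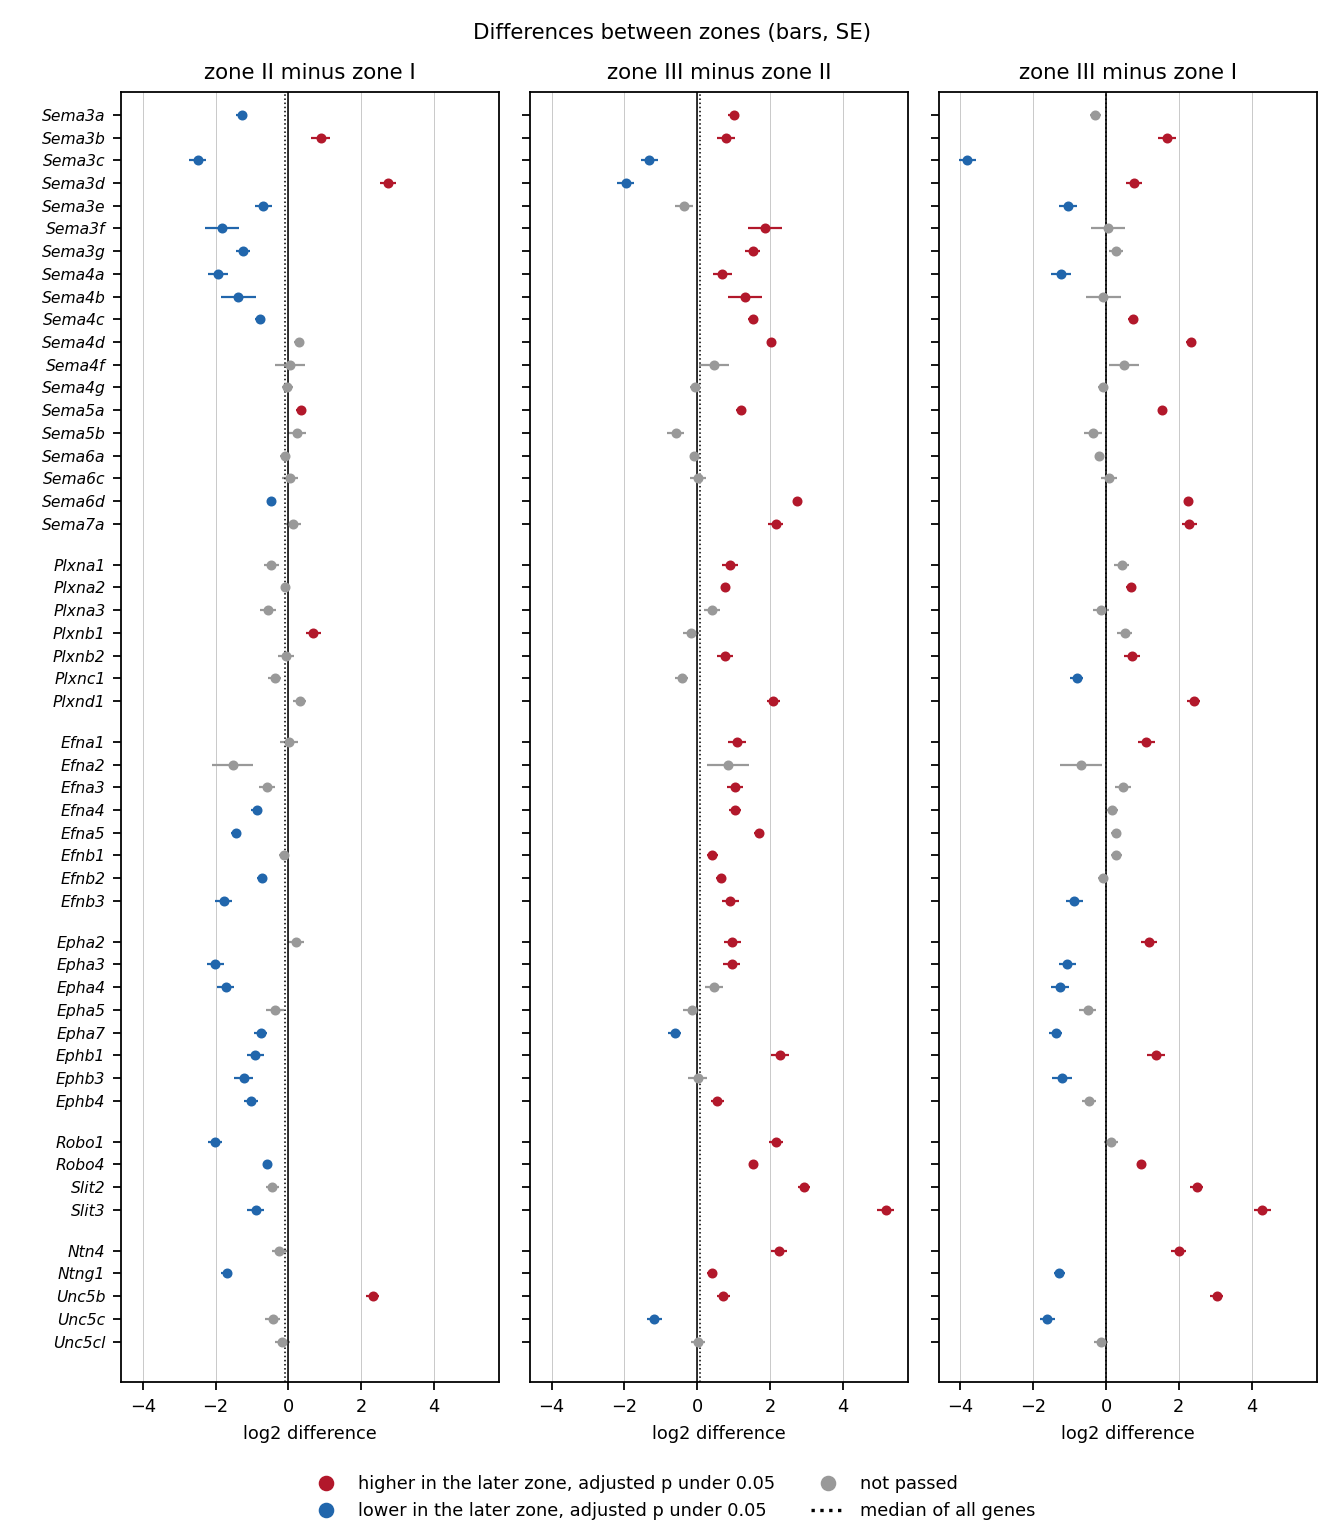
Log2 difference ± SE of each of the 51 genes in zone II minus zone I, zone III minus zone II and zone III minus zone I, by family, coloured where the adjusted p was under 0.05 (limma). Slit3 and Slit2 reach 5.18 and 2.94 in zone III minus zone II, and Sema3c falls to -3.81 in zone III minus zone I.

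The 4 Slits and Robos were all higher in zone III than in zone II, where 31.0% of all genes were higher. Their median log2 difference was 2.56, the highest of the 6 family medians. Slit3 passed the filter through zone III alone, so its direction is not independent of the filter and it bears on this median. Slit2, Robo1 and Robo4 gave 2.94, 2.18 and 1.55. Slit2, a secreted repellent of axons, had 163, 114, 171 and 157 in zone I, 116, 79.0, 117 and 135 in zone II and 829, 919.5, 814 and 807 in zone III. Zones I and II overlapped, and every zone III array was far above both. Slit2 was higher in zone III than in zone II 7.66-fold (log2 difference 2.94 ± 0.17, adjusted p = 7.40e-08) and than in zone I 5.63-fold (log2 difference 2.49 ± 0.17, adjusted p = 2.82e-07), and a second Slit2 probe set gave 2.87 and 2.90.

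Slit3, a related secreted ligand, had 11.5, 6.09, 11.8 and 6.07 in zone I, 5.29, 4.40, 4.79 and 3.77 in zone II and 181, 152, 194 and 137 in zone III. It was measured at 50 or more in zone III alone. Slit3 was higher in zone III than in zone II 36.3-fold (log2 difference 5.18 ± 0.23, adjusted p = 1.83e-08) and than in zone I 19.5-fold (log2 difference 4.29 ± 0.23, adjusted p = 4.12e-08), and both rest on signals far under 50 in zones I and II. With 16 added to every signal before the log, the 2 log2 differences were 3.14 and 2.87. Slit1 did not pass in any zone.

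Robo1, the receptor of Slit1, Slit2 and Slit3, had 362, 297, 285 and 312 in zone I, 79.3, 49.7, 82.8 and 106 in zone II and 398, 343, 327 and 322 in zone III. Every zone II array was far below the outer zones, which overlapped. Robo1 was lower in zone II than in zone I 4.08-fold (log2 difference -2.03 ± 0.19, adjusted p = 7.40e-06) and higher in zone III than in zone II 4.52-fold (log2 difference 2.18 ± 0.19, adjusted p = 1.79e-06), with 0.15 ± 0.19 for zone III against zone I (adjusted p = 0.583), where its ligand Slit2 was higher. Robo4, a Robo of endothelial cells, had 73.6, 53.3, 54.8 and 69.3 in zone I, 40.8, 45.5, 43.8 and 37.0 in zone II and 118, 121, 113 and 135 in zone III. The zones did not overlap, and Robo4 was higher in zone III than in zone II 2.92-fold (log2 difference 1.55 ± 0.13, adjusted p = 1.20e-06) and than in zone I 1.96-fold (log2 difference 0.97 ± 0.13, adjusted p = 8.31e-05), and lower in zone II than in zone I 1.49-fold (log2 difference -0.58 ± 0.13, adjusted p = 0.00421). Robo2 and Robo3 did not pass.

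Of the netrins and their receptors, Unc5b changed most. Unc5b, a netrin receptor of neurons and of sprouting endothelium, had 175, 185, 117 and 163 in zone I, 939.8, 842, 596 and 819 in zone II and 1558, 1317, 1209 and 1139 in zone III. It was among the 2 guidance genes higher in zone II than in the mean of the outer zones, and every zone III array lay above every zone II array. Unc5b was higher in zone II than in zone I 5-fold (log2 difference 2.32 ± 0.18, adjusted p = 1.36e-06), in zone III than in zone I 8.22-fold (log2 difference 3.04 ± 0.18, adjusted p = 7.41e-08) and in zone III than in zone II 1.64-fold (log2 difference 0.72 ± 0.18, adjusted p = 0.00511), where a second probe set gave 0.40 (adjusted p = 0.135). Its best known ligand, Ntn1, did not pass, with a highest zone mean of 18.7.

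Unc5c, the related receptor whose loss disturbs the mouse cerebellum, ran the other way. Unc5c had 715, 718, 912 and 717 in zone I, 354, 579.8, 617 and 811 in zone II and 266, 237, 258 and 237 in zone III. Zones I and II overlapped and zone III lay below both. Unc5c was lower in zone III than in zone II 2.27-fold (log2 difference -1.18 ± 0.20, adjusted p = 0.000417) and than in zone I 3.06-fold (log2 difference -1.61 ± 0.20, adjusted p = 5.14e-05).

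The promoters of Slit2 and Unc5b are shown because both genes were higher in zone III than in the other zones while Unc5b alone of them was higher in zone II than in zone I. They are RefSeq windows of the same extent on GRCm38.p6, at chr5:47982905-47983204 on the plus strand for Slit2 and chr10:60831532-60831831 on the minus strand for Unc5b, with GGGCGG on either strand in capitals.
Slit2: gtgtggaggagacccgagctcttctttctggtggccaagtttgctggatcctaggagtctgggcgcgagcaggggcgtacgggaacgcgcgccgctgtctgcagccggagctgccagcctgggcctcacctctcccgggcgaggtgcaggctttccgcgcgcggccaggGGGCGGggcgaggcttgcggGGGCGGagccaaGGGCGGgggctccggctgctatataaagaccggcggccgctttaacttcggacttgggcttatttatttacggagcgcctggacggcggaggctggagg
Unc5b: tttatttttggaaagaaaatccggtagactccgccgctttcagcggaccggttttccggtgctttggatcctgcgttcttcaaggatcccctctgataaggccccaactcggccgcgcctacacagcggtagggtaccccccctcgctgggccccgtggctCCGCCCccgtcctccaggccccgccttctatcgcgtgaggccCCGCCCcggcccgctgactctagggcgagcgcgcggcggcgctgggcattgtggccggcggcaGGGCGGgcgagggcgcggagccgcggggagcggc
Both windows held 3 GC boxes, with 68.0% G and C in that of Slit2 and 69.7% in that of Unc5b. The Slit2 window was also 1 of the 2 with TATAAA.

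Ntn4, a laminin-like netrin of basement membranes, had 33.9, 57.9, 37.5 and 33.9 in zone I, 35.6, 40.2, 22.0 and 40.0 in zone II and 155, 164, 159.7 and 157 in zone III. Only zone III was clearly above 50, and Ntn4 was higher there than in zone II 4.74-fold (log2 difference 2.24 ± 0.21, adjusted p = 2.90e-06) and than in zone I 4-fold (log2 difference 2.00 ± 0.21, adjusted p = 1.11e-05). Ntng1, a lipid-anchored netrin that binds neither Dcc nor Unc5 receptors, had 186, 143, 197 and 149 in zone I, 49.5, 43.0, 54.8 and 60.7 in zone II and 65.7, 73.9, 72.9 and 62.9 in zone III. Zone I stood far above the other zones. Ntng1 was lower in zone II than in zone I 3.24-fold (log2 difference -1.70 ± 0.14, adjusted p = 2.90e-06) and in zone III than in zone I 2.43-fold (log2 difference -1.28 ± 0.14, adjusted p = 1.77e-05), and higher in zone III than in zone II by 0.41 ± 0.14 (adjusted p = 0.0298), a call lost without zone II array A or B or zone III array B or C (adjusted p = 0.0617 to 0.0873). Unc5cl, which the name rule takes in although it is only similar to Unc5c, averaged 53.8, 47.2 and 48.3 in zones I, II and III.

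**Figure D4:**
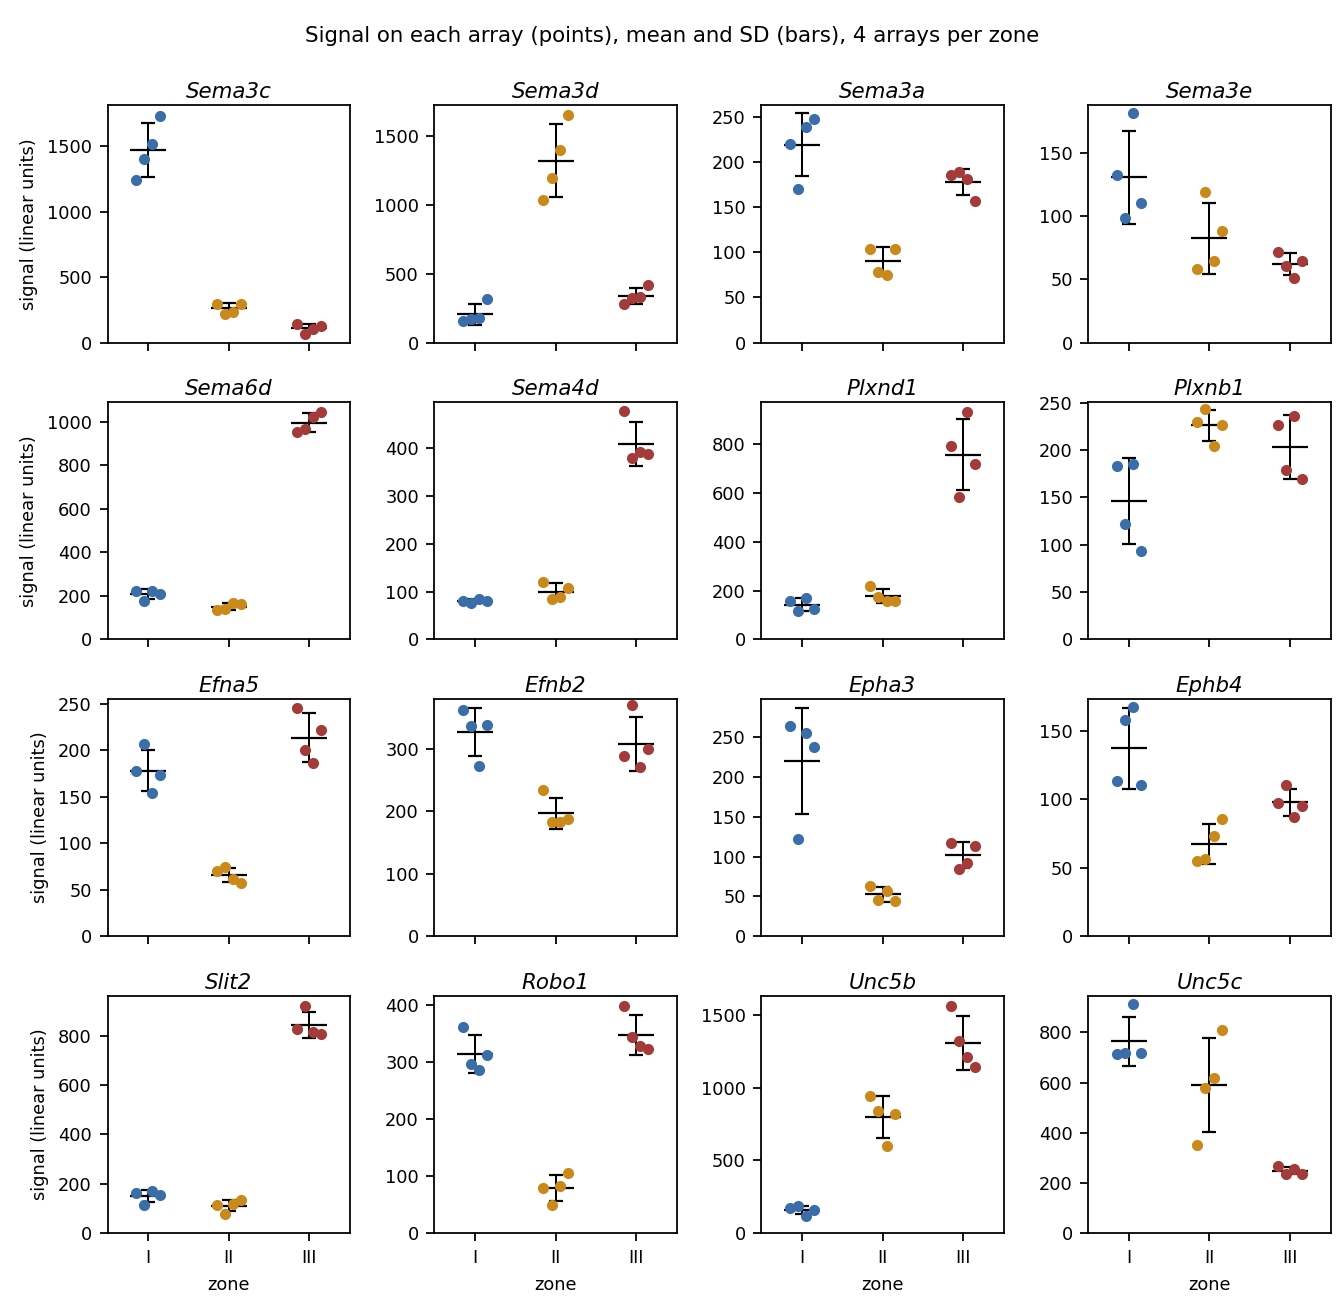
Linear signal of 16 guidance genes on the 4 arrays of each zone (points), with the zone mean and SD (bars). Sema3c falls along the zones, Sema3d peaks in zone II with 1037 to 1650, Efna5, Robo1 and Sema3a dip there, and Slit2, Sema6d and Plxnd1 rise in zone III.

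Named ligand and receptor pairs did not always share a pattern. Efnb2 and Ephb4 were both lower in zone II than in zone I, whereas Sema4d had its highest mean in zone III and its receptor Plxnb1 in zone II. Ephb2, the partner set for Efnb1, was not analysed here, since no probe set carries its symbol alone. The values near the filter were 50.4 for Epha5, 51.0 for Sema4f and 53.8 for Unc5cl as the highest zone means just inside, and 44.5 for Plxnb3, 44.5 for Plxna4 and 43.4 for Robo2 just outside. Of the 51 genes, 36 reached 50 in all 3 zones, 7 in 2 and 8 in only 1, namely Epha5, Ntn4, Plxnc1, Sema3g, Sema4a, Sema4f, Slit3 and Unc5cl. The filter kept these 8 through the zone where each is high, so their differences against that zone are not independent of it.

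Markers of vessel, blood and fibrous cells are set beside the guidance genes, and their lists did not all have the same pattern. The 14 endothelial markers, such as Cdh5 and Kdr, summed to 1741 to 2534 in zone I, 924.8 to 1410 in zone II and 4493 to 4953 in zone III. In zone II against zone I 12 were lower and 0 higher, and in zone III against zone II 13 were higher and 0 lower. In zone III against zone I 11 were higher and 0 lower. Pecam1 averaged 15.6 and Tie1 1.62 in zone II, both far under 50. The endothelial gene Kdr, which is also a co-receptor in semaphorin signalling, averaged 148, 70.4 and 513 in zones I, II and III. Beside these values stand Robo4, Efnb2, Ephb4 and Sema3g, genes known from endothelium that dipped in zone II. Plxnd1, Unc5b and Efna1 were not lower in zone II than in zone I. In zone III against zone I Robo4, Plxnd1, Unc5b and Efna1 were higher, whereas Efnb2, Ephb4 and Sema3g did not pass. The part of endothelial cells in any of these results was not tested.

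Macrophage markers, 8 of 10 above the filter, summed to 1186 to 2092, 609.0 to 981.3 and 5025 to 6009 in zones I, II and III. Of these 3 were lower in zone II against zone I and 8 higher in zone III against zone II. The 9 osteoclast markers, such as Acp5 and Ctsk, summed to 705.7 to 809.3 in zone I and 703.0 to 1718 in zone II. Of these 2 were higher and 1 lower in zone II than in zone I, and all 9 were higher in zone III than in zone II. The 10 markers of perichondrium, tendon and fibrous tissue summed to 16200 to 20920, 9097 to 13850 and 15110 to 17690, with 6 lower and 1 higher in zone II against zone I and 6 higher and 1 lower in zone III against zone II. Mural cell markers, 6 in number, summed to 1800 to 2939, 1168 to 1787 and 3076 to 3374. The counts did not follow these sums, with 2 higher and 3 lower in zone III than in zone I and a median log2 difference of -0.68. The 6 joint markers, such as Gdf5, summed to 2923 to 3687, 642.1 to 1100 and 1135 to 1198. Of these 0 were higher and 5 lower in zone II against zone I, and 2 higher and 1 lower in zone III against zone II. In zone III against zone I 0 were higher and 5 lower. Erg is in both this list and the endothelial one. Beside them stand Epha3, Epha4, Ntng1 and Sema3c, which are among the 22 guidance genes with their highest mean in zone I. The 7 osteoblast markers summed to 195.4 to 332.4, 3619 to 5386 and 9071 to 10050, beside Slit2, Sema6d and Unc5b, which were also higher in zone III than in zone II. In zone II against zone I, 6 of these markers were higher and 0 lower, as Unc5b was higher. Sema6d was lower there (log2 difference -0.47) and Slit2 did not pass (-0.44). The part of these cell types was not tested.

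Nerve fibres and muscle were also looked for. The neuronal markers Tubb3, Stmn2 and Elavl4 were under 50 in every zone, while the neurofilaments Nefl and Nefm averaged 128.5 and 64.6 in zone I, against 20.5 and 7.04 in zone II and 43.3 and 13.8 in zone III. The nerve and Schwann cell list, 5 of 10 above the filter, summed to 1867 to 2569, 2941 to 3158 and 421.9 to 657.2, most of it S100b, which cartilage also makes. Muscle markers, 9 of 10 above the filter, summed to 484.6 to 2510, 650.5 to 1275 and 520.3 to 1151. The part of nerve and muscle was not tested.

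Co-receptors of the pathway were mostly higher in zone III. Of 13 co-receptors and other receptors, 11 passed the filter, with 1 higher and 3 lower in zone II against zone I, 7 higher and 1 lower in zone III against zone II, and 7 higher and 0 lower in zone III against zone I. The 3 lower in zone II were 27.3% of the 11, near the 25.4% of all genes, and the 7 higher in zone III than in zone II were 63.6%, against 31.0% of all genes. Nrp2, the neuropilin of Sema3c and Sema3f, averaged 485 ± 27.3 in zone I, then 118 ± 27.1 in zone II and 954 ± 129 in zone III, lower in zone II than in zone I (log2 difference -2.08 ± 0.17, adjusted p = 2.17e-06) and higher in zone III than in zone II (log2 difference 3.04 ± 0.17, adjusted p = 5.02e-08). Nrp1, the neuropilin of Sema3a, averaged 761 ± 150.4 in zone I, then 942 ± 249 in zone II and 1919 ± 56.8 in zone III, with 0.29 ± 0.19 for zone II against zone I (adjusted p = 0.249) and higher signals in zone III than in zone II (log2 difference 1.06 ± 0.19, adjusted p = 0.000493). Met, a growth factor receptor that associates with plexins of class B, averaged 70.5, 8.88 and 184 in zones I, II and III.

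The netrin receptor Dcc was near the filter throughout, at 44.2, 50.2 and 47.1 in zones I, II and III, and its relative Neo1 averaged 1262, 1344 and 1421, and neither passed in any comparison. The integrin Itga1 averaged 122 ± 11.1 in zone I, then 529.6 ± 73.2 in zone II and 325 ± 51.1 in zone III and was higher in zone II than in zone I (log2 difference 2.11 ± 0.14, adjusted p = 5.30e-07). Of 16 other ligands and modulators, 11 passed the filter, with 2 higher and 3 lower in zone II against zone I and 4 higher and 4 lower in zone III against zone II. The shares in zone II against zone I, 18.2% and 27.3%, were near the 16% and 25.4% of all genes. Flrt2, a membrane protein that binds Unc5 receptors, averaged 1209 ± 96.1 in zone I, then 504 ± 38.7 in zone II and 1054 ± 26.6 in zone III and was lower in zone II than in zone I (log2 difference -1.26 ± 0.10, adjusted p = 1.89e-06). Nrcam, a cell adhesion molecule that joins neuropilin-2, averaged 65.2 ± 12.9 in zone I, then 236 ± 70.2 in zone II and 62.5 ± 6.99 in zone III and was higher in zone II than in zone I (log2 difference 1.82 ± 0.23, adjusted p = 5.85e-05). Adam10, the protease that sheds ephrins, averaged 1103, 814 and 1873 in zones I, II and III.

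Other probe sets of a gene mostly gave the same direction on the same arrays. In 53 comparisons the chosen probe set was called and another probe set of the gene lay above the filter. Of these, 51 had the same sign, 43 the same call and 0 the opposite call. The exceptions in sign were Epha4 and Sema6d in zone III against zone I. The median over the probe sets of a gene, in place of the one with the highest signal, gave log2 differences of 1.41 for Sema6d, 1.32 for Efnb1, 1.62 for Plxna2 and 2.74 for Sema3f in zone III against zone II. It gave -0.91 for Epha4, -2.62 for Ntng1 and -2.43 for Sema3f in zone II against zone I, and 1.05 for Sema6d, -3.19 for Sema3c and -0.45 for Epha4 in zone III against zone I, where Epha4 no longer passed (adjusted p = 0.0669). The arrays went through 3 fluidics runs that each held all zones, and within each run the sign was that of the whole set for 27 of 28 genes called in zone II against zone I, for 37 of 37 in zone III against zone II and for 29 of 29 in zone III against zone I. The exception was Sema5a, with log2 differences of 0.44, -0.04 and 0.59 in the 3 runs.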

How the data were processed

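Signals of 12 arrays, 4 for each of 3 zones, were matched to zones by the sample records, with 0 columns unmapped. The intensity values were used as deposited by the authors, 1 linear intensity per probe set and array, with 0 missing values and 0 at or below 0. The paper names GCRMA and RMA and the submitters' notes name RMA, but the values are on a linear scale and their distributions differ between arrays, and the sources used here do not give the algorithm behind them. Raw array files were not used. Precision is limited by having 4 arrays per zone.

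Of 45101 probe sets, 34958 carry 1 symbol in the platform annotation. Control probe sets and those under a mean of 50 in every zone were left out, and log2 was taken of the signals without a pseudocount. limma 3.58.1 in R 4.3.3 fitted all 12 arrays (lmFit and eBayes), with Benjamini-Hochberg adjustment over 22255 probe sets. The fit was tested on simulated data. Levels of different probe sets were not compared gene by gene. Marker lists were summed over linear signals, so the brightest probe sets weigh most in each sum. Promoter sequences are from RefSeq, GRCm38.p6.

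Values of every array are given for up to 4 members per family with the largest differences among those at an adjusted p under 0.05, and for members of textbook ligand and receptor pairs, and Sema3f was added after its values were seen. The members and lists were chosen with earlier results of these data known. Alternatives were other filters, scalings, variance models and log scales, a replicate or run block, the 8 arrays of a comparison alone, the median over probe sets of a gene, and leaving out each array.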

Additional observations from a re-analysis of the deposited data

Results flagged for a closer look

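In 12 of 153 groups of 4 arrays (1 gene in 1 zone), 1 array lay apart from the other 3 by most of the range of the group. Chance gives about 1 in 20 such groups. Zone I array B held 3 of them: Epha3 had 121.6, against 237.7 to 263.3 on the other zone I arrays, Plxna1 had 232.9, against 129.4 to 136.9, and Plxnb2 had 579.2, against 287.9 to 299.6. Zone I array C held another 3: Sema4f had 15.64, against 41.28 to 49.9, Sema5a had 109.3, against 79.57 to 83.85, and Unc5c had 912.4, against 715.3 to 717.7.

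Sema3d had 313.5 on zone I array D, against 156.3 to 174.6 on the other arrays of that zone. In zone II, Efnb1 had 180.6 on array C, against 229.9 to 235.2, and Efnb2 had 233.7 on array A, against 182.3 to 187.7. In zone III, Efna1 had 117.7 on array C, against 150.0 to 154.2, Epha7 had 52.89 on array D, against 43.12 to 43.93, and Sema4d had 476.2 on array A, against 378.6 to 391.5. Without the array that stood apart, 1 of the differences of these genes at an adjusted p under 0.05 missed that threshold, that of Efnb1 in zone III against zone II (limma, adjusted p = 0.0712).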

How the results depend on the processing

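Of 204 comparisons of a member between zones, 126 passed. Of these, 101 passed in each of the 24 alternatives that held the comparison, and all 126 had the same sign there. The fits of the 8 arrays of a comparison hold no contrast with the mean of the outer zones. The filter with a floor of 100 leaves out members under it in every zone. The 5 members higher in zone II than in zone I became 3 without a filter and with array weights and 2 with ribosomal protein centring, the 4 lower in zone III than in zone II became 8 with quantile normalization and 7 with median centring, and the 2 higher in zone II than in the mean of the outer zones became 4 with quantile normalization, 5 with median centring and 4 with the median of probe sets. The cause was not tested. Leaving out each array gave 3 to 5 members higher and 21 to 25 lower in zone II against zone I, 28 to 33 higher and 4 to 6 lower in zone III against zone II, 17 to 19 higher and 11 to 12 lower in zone III against zone I, and 2 to 3 higher and 29 to 33 lower in zone II against the outer zones. The 3 in zone II against zone I came without zone I array B or D or zone II array B. Each of the 4 litters gave all 3 zones, but the sources used here do not say that a letter marks 1 litter. Same-letter deviations correlated at 0.14 to 0.19 between zones I and III, and those of different letters at -0.23 to 0.09. Over all pairs of zones the ranges were -0.13 to 0.26 and -0.30 to 0.23. Between zones I and III every same-letter value thus exceeded every other, so a pairing by letter may be present there. The main fit treated the arrays as unpaired because no label states the pairing. The fit with a replicate block gave 22 lower and 4 higher members in zone II against zone I and 32 higher and 4 lower in zone III against zone II. In it Sema3e (adjusted p = 0.0746), Sema4b (0.0599) and Sema5a (0.0512) missed the threshold in zone II against zone I, and Sema4a (0.0521) and Sema4b (0.0581) in zone III against zone II, while Efna2 (0.0369) passed in zone II against zone I, Epha4 (0.0247) in zone III against zone II and Plxnb1 (0.0465) in zone III against zone I. Of the calls, 25 were lost under at least 1 alternative, 14 of them without 1 array. Signals under 50 in some zones limit the fold sizes of Slit3, Sema4a, Sema3g, Ntn4 and Plxnc1, among others.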

Other observations

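Intracellular effectors of guidance signalling, 37 of 39 measured above the filter, are described here by their counts, with no test of the list. In zone II against zone I 6 were higher (16.2%, against 16% of all genes) and 13 lower (35.1%, against 25.4%), in zone III against zone II 19 were higher (51.4%, against 31.0%) and 4 lower (10.8%, against 22.7%), and in zone III against zone I 16 were higher (43.2%, against 21.7%) and 4 lower (10.8%, against 21.7%). Dpysl3 and Crmp1, collapsin response mediators that carry semaphorin signals to the cytoskeleton, were among those higher in zone III than in zone II. Dpysl3 averaged 611.6 ± 58.4 in zone III and 188.9 ± 47.6 in zone II (SD, n = 4 each), a log2 difference of 1.73 ± 0.19 (SE; limma, adjusted p = 1.16e-05), and Crmp1 averaged 122.6 ± 16.04 in zone III and 9.20 ± 7.31 in zone II, a log2 difference of 4.00 ± 0.40 (adjusted p = 4.73e-06) against a level far under 50. Trio, an exchange factor downstream of netrin receptors, averaged 572.7, 185.1 and 542.4 in zones I, II and III, and Fyn, a kinase in the same pathway, 234.5, 116.3 and 506.5.

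Other effectors were higher in zone II than in zone I. Enah, an actin regulator in growth cones, averaged 2144 ± 59.9 in zone II and 1231 ± 130.8 in zone I (log2 difference 0.81 ± 0.11, adjusted p = 0.000124), and the GTPase Rhoa was also higher there (0.47 ± 0.12, adjusted p = 0.00936). Dapk1 was low in both zones II and III. This kinase, which binds Unc5 receptors, averaged 105.0 ± 26.0 in zone II and 237.4 ± 21.6 in zone I (log2 difference -1.21 ± 0.17, adjusted p = 0.000193) and 97.8 ± 14.2 in zone III.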
